A study of Homo sapiens with 12 samples.

Results

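The oxidative phosphorylation (OXPHOS) subunits are the proteins of complexes I to V of the inner mitochondrial membrane. Their genes were taken by symbol from GENCODE v44: protein-coding genes of the NDUFA, NDUFB, NDUFC, NDUFS, NDUFV, UQCR, COX4 to COX8 and ATP5 families without the NDUFAF assembly factors, SDHA to SDHD, CYC1 and the 13 protein genes of the mitochondrial genome. This rule found 104 genes among the 39099 genes with transcript rows, 91 of them nuclear and 13 mitochondrial. Complex I held 45 genes, complex II 4, complex III 11, complex IV 22 and complex V 22. COX genes, NDUFA4 and its relative NDUFA4L2 were counted with complex IV, and the ATP synthase inhibitor ATP5IF1 with complex V.

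RNA was sequenced from 12 libraries of the human pancreatic cancer cell lines AsPC-1 (ASPC1 in the labels) and PANC-1. Each line was studied as mock cells, cells overexpressing TAp63 and cells overexpressing deltaNp63, which are the protein classes that the upstream and the internal promoter of the transcription factor gene TP63 give. Each of the 6 groups held 2 libraries described as biological replicates, so a difference between the lines is a difference between 2 cultured lines. The vector, the promoter driving the constructs, the time after their introduction and whether cells were pooled or cloned are not given in the sources used here. Values are TPM, the abundance of a transcript for its length relative to all transcripts of the library, a level that can be compared between genes, and the read depth behind them is unknown. In bulk RNA of this kind, a change in the make-up of a culture and a change in RNA per cell cannot be told apart.

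OXPHOS passes electrons from NADH through complex I, or from succinate through complex II, to complex III, cytochrome c and complex IV, which reduces oxygen. Complexes I, III and IV pump protons, and complex V, the ATP synthase, uses the gradient to make ATP. The mitochondrial genome codes for core subunits of complexes I, III, IV and V as long multi-gene transcripts that are cut into individual RNAs, whereas complex II and all other subunits come from the nucleus.

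In each group the 2 libraries held TP63 at 0.817 and 1.10 TPM in AsPC-1 mock, 102 and 170 in AsPC-1 TAp63, 245 and 350 in AsPC-1 deltaNp63, 0.0245 and 0.119 in PANC-1 mock, 324 and 342 in PANC-1 TAp63, and 815 and 1187 in PANC-1 deltaNp63. The overexpression libraries thus stood above their mock libraries in both lines. All 6 ductal epithelial markers were present in both lines, with a summed level of 7142 to 10565 TPM in AsPC-1 and 3500 to 3869 TPM in PANC-1. The 4 mesenchymal markers summed to 2015 to 2378 TPM in AsPC-1 and 4336 to 4986 TPM in PANC-1. The lines thus differed in these sums as well. Of the epithelial markers KRT7 alone was higher in PANC-1 (13.7 to 17.5 TPM against 9.24 to 13.1 TPM). VIM made up most of the mesenchymal sum, with 2000 to 2361 TPM in AsPC-1 and 4291 to 4943 TPM in PANC-1. CDH2 and ZEB1 were also higher in PANC-1, while FN1 overlapped between the lines at no more than 1.10 TPM. The part of these differences in the results below was not tested. The endothelial, acinar and islet lists reached at most 0.278, 1.23 and 0.471 TPM in any library. Of the 3 leukocyte markers, PTPRC was at most 0.0102 TPM and CD3E at most 0.0552 TPM, and only CD68 was above 1 TPM.

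Promoter stretches are shown for 5 members with large differences between the lines in either direction and for COX5B as an example of an ETS match, all chosen after their values were seen and not as the largest differences in order. Each is the 200 bases before the RefSeq start site on GRCh38.p14, printed 5′ to 3′ on the strand of the gene. Capitals mark a match to the NRF1 motif, GCGCA and GCGC with any 1 base between them, or to the ETS motif CCGGAAG on either strand. NRF1 is nuclear respiratory factor 1, a transcription factor known for binding promoters of respiratory chain genes, and GABP, another known regulator of these genes, is an ETS factor. NDUFB4 (chr3:120596136-120596335, plus strand) codes for an accessory subunit of complex I and held 2 NRF1 matches. UQCRFS1 (chr19:29213152-29213351, minus strand), the Rieske iron-sulfur protein of complex III, held 1. ATP5MC1 (chr17:48892587-48892786, plus strand), one of 3 genes for the subunit c of the ATP synthase rotor ring, and ATP5IF1 (chr1:28235924-28236123, plus strand) held no match to either motif in these letters. SDHA (chr5:218120-218319, plus strand), the flavoprotein of complex II and lower in PANC-1, held 4 NRF1 matches, so that NRF1 matches stood in members of both directions. COX5B (chr2:97645862-97646061, plus strand), a nuclear subunit of complex IV, held an ETS match.
NDUFB4: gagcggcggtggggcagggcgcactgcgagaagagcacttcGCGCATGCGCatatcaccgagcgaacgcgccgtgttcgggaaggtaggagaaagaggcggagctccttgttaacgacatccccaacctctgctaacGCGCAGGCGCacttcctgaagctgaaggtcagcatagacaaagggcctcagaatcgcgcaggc
UQCRFS1: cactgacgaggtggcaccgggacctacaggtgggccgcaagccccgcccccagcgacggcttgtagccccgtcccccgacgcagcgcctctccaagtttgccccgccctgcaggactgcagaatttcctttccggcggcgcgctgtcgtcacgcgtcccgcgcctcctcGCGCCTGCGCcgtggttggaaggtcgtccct
ATP5MC1: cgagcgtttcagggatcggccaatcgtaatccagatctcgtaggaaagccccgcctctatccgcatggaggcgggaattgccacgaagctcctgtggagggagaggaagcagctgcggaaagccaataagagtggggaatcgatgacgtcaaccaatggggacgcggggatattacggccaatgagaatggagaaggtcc
ATP5IF1: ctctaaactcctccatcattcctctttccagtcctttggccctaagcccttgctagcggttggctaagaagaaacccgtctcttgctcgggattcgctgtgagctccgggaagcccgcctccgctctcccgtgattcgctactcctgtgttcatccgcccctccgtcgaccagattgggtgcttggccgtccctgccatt
SDHA: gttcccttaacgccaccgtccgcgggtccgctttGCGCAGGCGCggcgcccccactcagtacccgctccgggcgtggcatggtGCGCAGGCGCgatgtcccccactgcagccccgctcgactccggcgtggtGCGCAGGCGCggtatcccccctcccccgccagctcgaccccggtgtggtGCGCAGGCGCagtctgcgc
COX5B: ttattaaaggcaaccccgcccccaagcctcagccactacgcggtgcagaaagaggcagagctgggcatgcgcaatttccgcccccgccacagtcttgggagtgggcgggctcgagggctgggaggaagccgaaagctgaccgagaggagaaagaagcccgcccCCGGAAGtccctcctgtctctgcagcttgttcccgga

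Of the 104 members, 71 had an entry among 27305 RefSeq promoters of 250 bases before to 50 after the start. NRF1 matches were found in 17 of these 71 (23.9%) against 6.28% of all promoters. ETS matches were found in 20 of 71 (28.2%) against 10.7%. The YY1 motif AAGATGGCG was found in 8 (11.3%) against 1.85%, and TATAAA in 7 (9.86%) against 11.95%. All motifs were searched on both strands, none of the 4 contains another, and 34 of 71 promoters (47.9%) held an NRF1 or an ETS match against 15.7% of all promoters. The median log2 difference between the mock cells of the lines was 0.37 over the 16 tested members with an NRF1 match and 0.20 over the 52 without one, and 0.19 over 20 with an ETS match and 0.29 over 48 without one.

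The members together made up 3.77% to 5.00% of all TPM in a library. In AsPC-1 the 13 mitochondrial genes took the larger part, with 2.40% to 3.14% of TPM over the 6 libraries (median 2.74%) against 1.72% to 1.87% (median 1.78%) for the nuclear genes. In PANC-1 the order was the other way round, with 1.52% to 2.09% (median 1.71%) for the mitochondrial and 2.11% to 2.35% (median 2.22%) for the nuclear genes. The ratio of the mitochondrial to the nuclear sum was therefore 1.40 to 1.69 in AsPC-1 and 0.676 to 0.922 in PANC-1, and the lines did not overlap in any of these values.

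Summed by complex, the nuclear genes of complexes I and V were higher in PANC-1 and those of complexes II and IV were not separated by line. Nuclear complex I genes summed to 4851 to 5291 TPM in AsPC-1 and 6724 to 7386 TPM in PANC-1, a ratio of means of 1.39. Nuclear complex V genes summed to 4895 to 5379 TPM and 6979 to 7654 TPM, a ratio of 1.42. For both complexes all 6 PANC-1 libraries lay above all 6 AsPC-1 libraries. Complex II (ratio 1.03), nuclear complex III (1.13) and nuclear complex IV (0.985) overlapped between the lines. For the mitochondrial genes the ratio was 0.713 in complex I, where the lines overlapped, and 0.658 in complex III, 0.650 in complex IV and 0.446 in complex V, where they did not. Within complexes I and V the summed nuclear and mitochondrial RNAs thus lay on opposite sides in the comparison of lines.

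**Figure D1:**
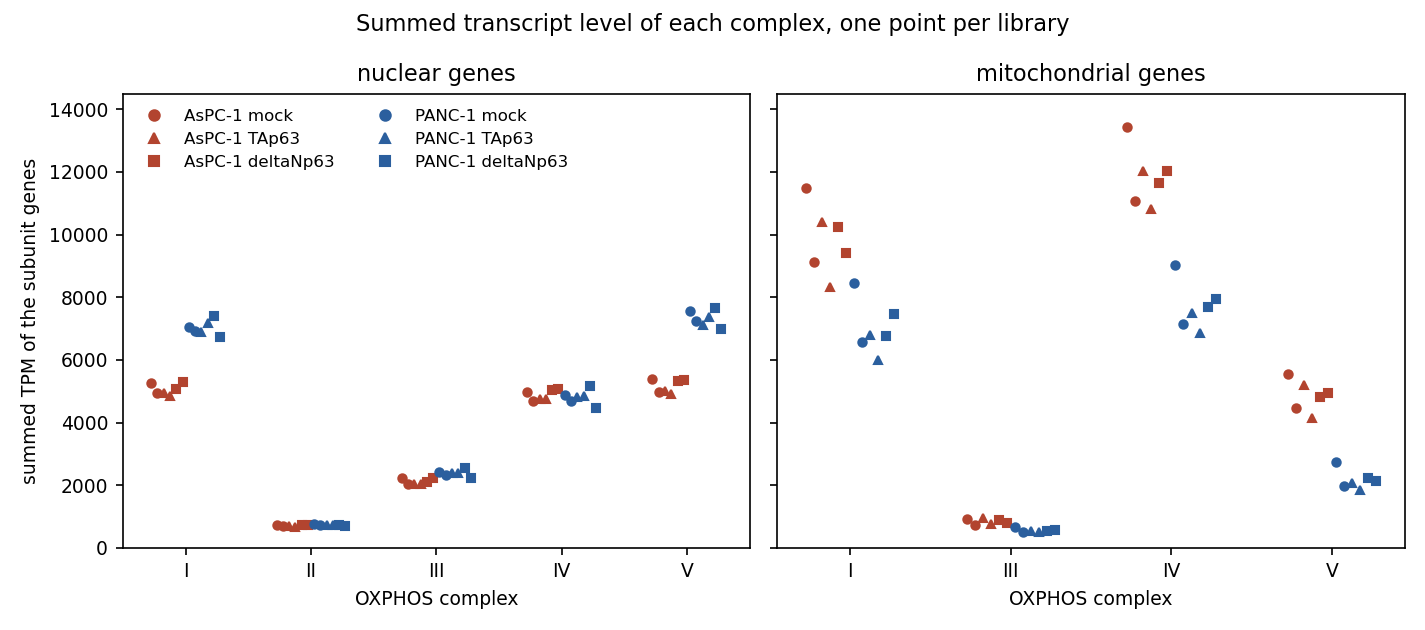
Summed TPM of the subunit genes of each complex (vertical axis) in each of the 12 libraries, nuclear genes on the left and mitochondrial genes on the right. Nuclear complexes I and V lie higher in PANC-1 (blue) and mitochondrial complexes III, IV and V lie lower, while constructs of one line lie together.

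Of the members, 97 passed the filter of at least 1 TPM in at least 2 libraries and were tested. UQCRHL, COX4I2, COX6A2, COX7A1, COX7B2, COX8C and ATP5MGL did not pass it. UQCRHL, a copy of the hinge protein gene of complex III, had the lowest mean of that complex and reached 1.96 TPM in 1 library only. The 71 nuclear members at 50 TPM or more in every library belonged to all 5 complexes, but the annotation limits some levels. For members including NDUFB1, NDUFC2-KCTD14, UQCRHL, COX6B1, COX7A2 and COX7B the canonical GENCODE transcript was not among the rows of the table, so their levels are uncertain. COX6B1, the ubiquitous form of its subunit, lay between 0 and 1.44 TPM, and whether the rows left out hold its RNA was not tested. NDUFA13, a complex I subunit with its canonical transcript in the table, had the lowest mean of complex I (1.42 to 4.43 TPM), and ATP5MC2, which codes for the same subunit c as ATP5MC1, lay between 4.80 and 7.62 TPM. Low protein-coding shares also mark single genes: only 1.14% of the NDUFA3 level in AsPC-1 and 1.23% in PANC-1 came from transcripts annotated as protein coding. A gene on the same strand overlaps 41 of the members and a gene on the other strand 39, and how reads in such stretches were assigned is not given in the sources used here.

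Of the 7 isoform families of complex IV, 6 were carried by their ubiquitous forms. The other was COX6B, where the ubiquitous form was near 0. The levels of COX6B1, COX7A2 and COX7B are uncertain because of the missing transcripts. COX4I1, the regulatory subunit at the matrix side, had 560, 590 and 626 TPM as lowest, median and highest of the AsPC-1 libraries and 559, 588 and 643 TPM in PANC-1, and COX4I2, its lung and hypoxia form, was at most 0.523 TPM. COX6A1 had 1137, 1177 and 1278 TPM in AsPC-1 and 897, 942 and 1020 TPM in PANC-1, the highest mean of all nuclear members, while the muscle form COX6A2 was at 0 in all AsPC-1 libraries and at most 0.301 TPM in PANC-1. COX8A had 675, 821 and 854 TPM in AsPC-1 and 720, 751 and 788 TPM in PANC-1, and COX8C was listed at 0 in every library, as was COX7B2. COX7A2L, which acts in supercomplexes, lay at 187 to 303 TPM and COX7A2 at 74.7 to 244 TPM, whereas the muscle form COX7A1 was at most 0.365 TPM. COX7B lay at 117 to 246 TPM. NDUFA4 lay at 144 to 237 TPM and its hypoxia-linked relative NDUFA4L2 at 0.552 to 1.98 TPM. The testis form COX6B2 was the exception among the minor forms in that it separated the lines, as described below.

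Mock cells of the 2 lines were compared first, which asks how the lines differ without a construct. A gene was called when its p, from limma on log2(TPM + 1) and adjusted by Benjamini-Hochberg over 14767 genes, was under 0.05. Of the 97 tested members 66 were called, 41 higher and 25 lower in PANC-1, beside 72.5% of all tested genes called, 44.6% higher and 27.9% lower. The shares of the members were close to those of all genes. The nuclear members had a median log2 difference of 0.25 and all tested genes 0.24, so the nuclear members as a list did not stand apart from the median gene. Of 84 nuclear members 41 were called higher and 16 lower. None of the 13 mitochondrial genes was called higher and 9 were called lower, with a median of -0.64. The way the libraries are scaled moved this split: with each library centred on its median, which lowers the median of all genes from 0.24 to 0.07, the members were split 32 higher to 31 lower and the nuclear median was 0.07, and with quantile normalization the split was 39 to 24. The mitochondrial median stayed below 0 under both, at -0.81 and -0.59.

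**Figure D2:**
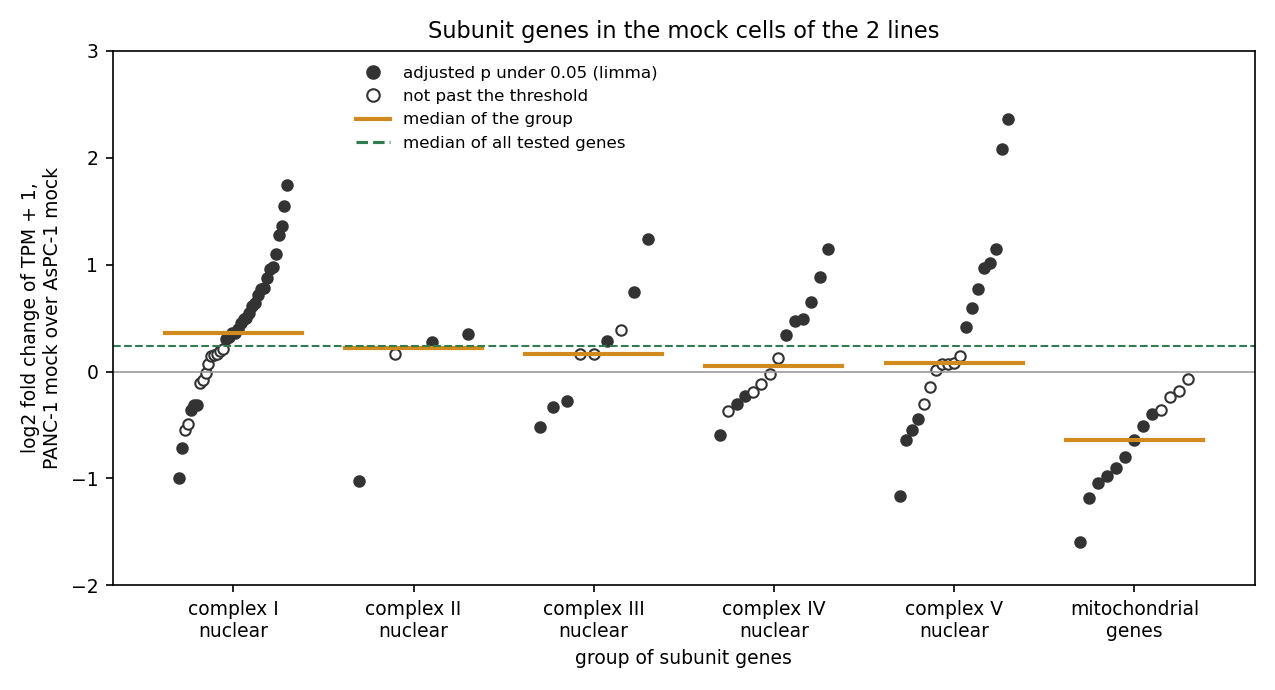
Log2 fold change of TPM + 1 (vertical axis) of the 97 tested members between PANC-1 mock and AsPC-1 mock, by complex and genome; filled points had an adjusted p under 0.05 in limma. The mitochondrial genes run from -1.59 to -0.07, all below the dashed median of all genes (0.24), while the nuclear genes spread from -1.17 (ATP5IF1) to 2.36 (ATP5MC1).

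All 13 mitochondrial RNAs were lower in the mean of PANC-1 mock, but by very different amounts. MT-CO3, a core subunit of complex IV (chrM:9207-9990), had 5115 and 4261 TPM in the AsPC-1 mock libraries and 1764 and 1359 TPM in PANC-1 mock, a log2 difference of -1.59 (SE 0.12, adjusted p = 1.18e-06). Over all 12 libraries its lowest, median and highest levels were 4261, 4796 and 5115 TPM in AsPC-1 and 1303, 1408 and 1764 TPM in PANC-1, which do not come near each other. MT-ATP6, the proton channel subunit of the ATP synthase, had 2307 and 1793 TPM against 1036 and 776 TPM (-1.18, SE 0.15, adjusted p = 5.57e-05). MT-ATP8, its partner in the same complex, had 3245 and 2667 TPM against 1687 and 1201 TPM (-1.05, SE 0.17, adjusted p = 0.000259), the highest level of complex V. MT-ND6, the only protein gene on its strand, and its neighbour MT-ND5, which code for complex I subunits, had log2 differences of -0.98 and -0.91.

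MT-ND3 (-0.80), MT-ND2 (-0.64), MT-CYB (-0.51) and MT-CO1 (-0.40) were also called lower. MT-CYB is the mitochondrial core of complex III and had the highest level of that complex. The calls of MT-ND2, MT-CYB and MT-CO1 were lost without AsPC-1 mock replicate 1 (log2 -0.44, -0.34 and -0.25) and without PANC-1 mock replicate 2 (-0.40, -0.32 and -0.24). MT-ND1 (-0.36), MT-ND4 (-0.24), MT-ND4L (-0.18) and MT-CO2 (-0.07) did not pass the threshold. MT-ND4L had the highest level of complex I, and MT-CO2, with 4391 and 3585 TPM in AsPC-1 mock and 4271 and 3345 TPM in PANC-1 mock, the highest of complex IV. MT-ND4L and MT-CO2 changed sign under quantile normalization. MT-ND1 and MT-ND4 passed the threshold without AsPC-1 mock replicate 2 (-0.53 and -0.44) and without PANC-1 mock replicate 1 (-0.56 and -0.45).

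Because ratios within a library do not depend on scaling, the unequal change can be read directly. MT-CO3 over MT-CO2 was 1.16 to 1.31 in AsPC-1 and 0.376 to 0.413 in PANC-1. MT-ATP6 over MT-CO2 was 0.50 to 0.534 and 0.220 to 0.243. MT-CO1 over MT-CO2 was 0.792 to 0.950 and 0.675 to 0.725. The lines did not overlap in any of the 3 ratios over the 12 libraries. MT-CO2, MT-ATP8, MT-ATP6 and MT-CO3 are neighbours in this order on the map, and their log2 differences between the mock cells were -0.07, -1.05, -1.18 and -1.59.

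**Figure D3:**
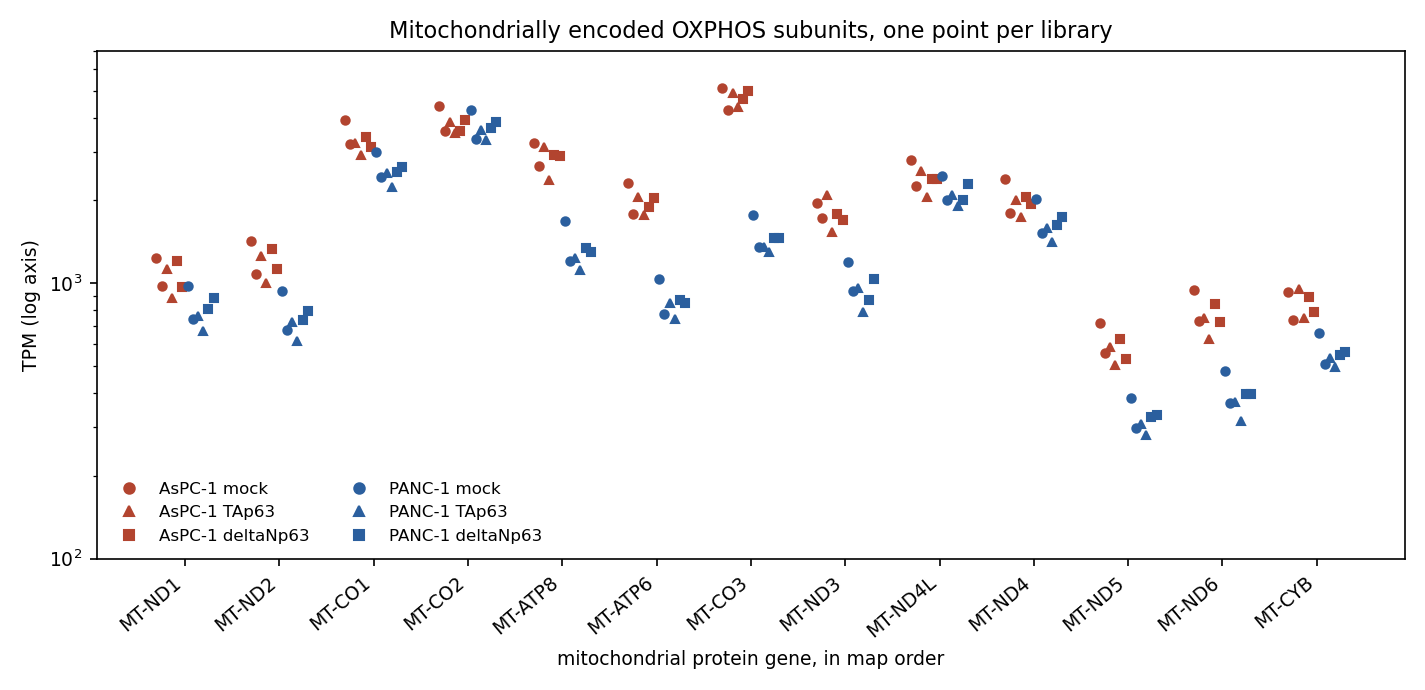
TPM (log axis) of the 13 mitochondrial protein genes in map order, one point per library, red for AsPC-1 and blue for PANC-1, with symbols for mock, TAp63 and deltaNp63. MT-CO2 and MT-ND4L overlap between the lines, while MT-ATP8, MT-ATP6 and MT-CO3 lie apart, MT-CO3 at 1303 to 1764 TPM in PANC-1 and 4261 to 5115 TPM in AsPC-1.

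Part of this stretch can be shared by reads of more than 1 gene. MT-ATP8 and MT-ATP6 overlap by 46 bases at chrM:8527-8572, shown here because reads within it fit both genes, with the start codon of MT-ATP6 in the first letters:
MT-ATP8 and MT-ATP6 overlap: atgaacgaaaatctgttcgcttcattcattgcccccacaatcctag
A nuclear copy of MT-ATP6, the pseudogene MTATP6P1 (chr1:633696-634376), differs from it at 10 of 681 positions in hg38 (98.5% identity). It was listed at 10.3% to 12.6% of the MT-ATP6 level in every library, and the sum of both was 1975 to 2588 TPM in AsPC-1 and 825 to 1154 TPM in PANC-1, again without overlap. The nuclear copy of MT-CO3, MTCO3P12, reached at most 0.883 TPM. All other mitochondrial pseudogenes together had 20.6 to 37.8 TPM.

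The mitochondrial RNAs also varied between replicates. All 13 were higher in replicate 1 than in replicate 2 of AsPC-1 mock, AsPC-1 TAp63, PANC-1 mock and PANC-1 TAp63, with median log2 differences of 0.33, 0.26, 0.38 and 0.16. In AsPC-1 deltaNp63 10 of 13 were higher in replicate 1 (median 0.08), and in PANC-1 deltaNp63 3 of 13 (median -0.06). The median coefficient of variation over the 6 libraries of a line was 11.1% in AsPC-1 and 11.98% in PANC-1 for the mitochondrial genes, and 8.83% and 6.05% for the tested nuclear members.

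Among the nuclear members, the ATP synthase showed the widest range between the lines. ATP5MC1 had 154 and 140 TPM in AsPC-1 mock and 770 and 744 TPM in PANC-1 mock, a log2 difference of 2.36 (SE 0.09, adjusted p = 5.41e-09). Its 6 AsPC-1 libraries lay between 128 and 154 TPM and its 6 PANC-1 libraries between 697 and 798 TPM. ATP5MC3, a second gene for the same mature subunit c, was at 297 to 348 TPM and 322 to 364 TPM, and its ranges overlapped. The share of ATP5MC1 in the summed RNA of the 3 subunit c genes was therefore 29.3% to 30.6% in AsPC-1 and 67.5% to 68.8% in PANC-1, given the uncertain level of ATP5MC2. The summed level of the 3 genes was 433 to 509 TPM against 1026 to 1167 TPM.

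ATP5IF1, which blocks ATP hydrolysis by the synthase, went the other way. It had 344 and 340 TPM in AsPC-1 mock and 152 and 152 TPM in PANC-1 mock (-1.17, SE 0.11, adjusted p = 5.67e-06). Relative to ATP5F1B, the catalytic beta subunit it binds, its level was 47.8% to 56.8% in AsPC-1 and 12.6% to 17.5% in PANC-1. ATP5MF-PTCD1, a readthrough of the membrane subunit gene ATP5MF into its neighbour, was called higher at low level (0.754 and 0.720 TPM against 6.61 and 6.09 TPM, log2 2.08). The sum of ATP5MF and the readthrough was 316 to 366 TPM in AsPC-1 and 673 to 796 TPM in PANC-1. Over all nuclear complex V genes 8 were called higher and 4 lower of 19 tested, beside 44.6% and 27.9% of all genes. Their median of 0.08 lay below the 0.24 of all genes, so the higher summed level of complex V was not shared by its median gene.

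Complex I made up 38 of the 84 tested nuclear members, of which 22 were called higher and 5 lower, with a median of 0.36, beside 44.6% and 27.9% of all genes and their median of 0.24. NDUFB4 had 131 and 129 TPM in AsPC-1 mock and 346 and 328 TPM in PANC-1 mock (log2 1.37, SE 0.07, adjusted p = 5.95e-08). The accessory subunit NDUFS5 had 241 and 217 TPM against 558 and 557 TPM (1.28, SE 0.15). NDUFC2, another accessory membrane subunit, had 42.8 and 28.8 TPM against 131 and 111 TPM (1.75, SE 0.25), and together with its readthrough NDUFC2-KCTD14 it had 102 to 120 TPM in AsPC-1 and 227 to 275 TPM in PANC-1. NDUFA3 had 62.9 and 65.5 TPM against 195 and 184 TPM (1.55, SE 0.14), nearly all from transcripts not annotated as protein coding. In the other direction NDUFA7, a peripheral accessory subunit, had 141 and 135 TPM against 68.7 and 68.5 TPM (-0.996, SE 0.11, adjusted p = 2.1e-05), and RPS28 overlaps it on the other strand. The ranges of the lines did not overlap for any of these 5 genes over all 12 libraries.

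Complex II links the citric acid cycle to the chain, and its 4 subunits did not move together. SDHA, the flavoprotein that oxidizes succinate, had 166 and 180 TPM in AsPC-1 mock and 84.3 and 85.3 TPM in PANC-1 mock (-1.02, SE 0.10, adjusted p = 4.82e-06). SDHB, its iron-sulfur partner, had 211 and 208 TPM against 268 and 267 TPM (0.35, SE 0.08, adjusted p = 0.00198). The membrane anchors SDHC (0.28, adjusted p = 0.0134) and SDHD (0.16, adjusted p = 0.268) differed less. SDHC lost its call with each library centred on its median (0.11), without AsPC-1 mock replicate 2 (0.19) and without PANC-1 mock replicate 1 (0.24), and SDHD changed sign with median centring. SDHB had the highest and SDHA the lowest mean of the complex. The ratio of SDHA to SDHB was 0.733 to 0.938 in AsPC-1 and 0.315 to 0.366 in PANC-1. SDHA has pseudogenes, and the 186 pseudogenes of nuclear members with rows together had 33.2 to 57.4 TPM, at most 0.245% of the nuclear members' sum.

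In complex III, 3 nuclear genes were called higher and 3 lower of 9 tested, beside 44.6% and 27.9% of all genes. UQCRFS1 had 81.5 and 79.7 TPM in AsPC-1 mock and 192 and 191 TPM in PANC-1 mock (1.24, SE 0.07, adjusted p = 6.64e-08), and its ranges over all libraries were as narrow, 79.7 to 83.9 TPM and 184 to 195 TPM. In complex IV 6 of 14 tested nuclear genes were called higher and 3 lower, beside the same shares of all genes. COX6B2 had 1.07 and 1.77 TPM against 5.50 and 3.35 TPM (1.15, SE 0.22, adjusted p = 0.000808) and did not overlap between the lines over all 12 libraries, at 1.02 to 2.35 TPM and 3.35 to 5.50 TPM. COX6A1 was called lower by -0.30 and COX8A by -0.23.

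Over all 12 libraries, with constructs included, 40 of 84 nuclear members were higher and 14 lower in PANC-1 with no overlap between the lines, beside 45.0% and 25.3% of all tested genes. Of the 13 mitochondrial genes 8 were lower without overlap. These counts were near the background for the nuclear members in the higher direction.

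Genes that build, express or control the complexes were described by lists in the mock comparison, where 44.6% of all tested genes were called higher and 27.9% lower, with a median of 0.24. Of 54 OXPHOS assembly factors 28 were called higher and 8 lower in PANC-1, with a median log2 difference of 0.39. Of 76 mitochondrial ribosomal protein genes 46 were called higher and 13 lower (median 0.37). Of 83 cytosolic ribosomal protein genes 19 were called higher and 47 lower (median -0.33). Of 14 citric acid cycle genes 3 were called in each direction (median -0.02). CYCS, cytochrome c, was called higher (0.53, adjusted p = 0.0032).

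Of the 23 nuclear genes for mitochondrial transcription, replication and RNA turnover, 15 were called higher and 4 lower in PANC-1, with a median of 0.71, beside the same 44.6% and 27.9% of all genes and their median of 0.24. The members named here were chosen after their values were seen. POLRMT, the mitochondrial RNA polymerase, had 3.83 ± 0.80 TPM in AsPC-1 mock and 15.7 ± 0.36 TPM in PANC-1 mock (SD, n = 2; log2 1.80, adjusted p = 6.71e-05 in limma). TFAM, which packages and starts transcription of the mitochondrial genome, had 70.0 ± 5.5 and 116 ± 9.995 TPM (log2 0.72). SLIRP, a stabilizer of mitochondrial RNAs, differed by 1.01, and its partner LRPPRC by 0.01, with 119 and 120 TPM. PNPT1, part of the RNA degrading machinery, was higher by 1.21.

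Among 8 tested regulators of nuclear OXPHOS genes 3 were called higher and 2 lower, beside 44.6% and 27.9% of all genes. NRF1, whose motif is in capitals above, had 9.22 ± 0.46 TPM in AsPC-1 mock and 7.96 ± 1.4 TPM in PANC-1 mock (SD, n = 2; log2 -0.20, adjusted p = 0.19 in limma). The coactivator genes PPARGC1B and PPRC1 were higher by 1.00 and 0.67, ESRRA, an orphan nuclear receptor, was lower by 0.66 (log2 -0.66), and PPARGC1A was not tested because it lay below the filter.

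Overexpression was compared with mock within each line, which asks whether either class of p63 changed these genes. The 2 comparisons in a line share their mock libraries. In AsPC-1, TAp63 gave 0 calls among 97 members in limma, beside 0.637% of all genes called. At an unadjusted p under 0.05 there were 3 members, beside 2233 of all 14767 tested genes. The nuclear median was -0.07 and that of all genes -0.08. When either AsPC-1 deltaNp63 library was left out, the complex I accessory subunit NDUFA8 was called lower (log2 -0.36), named after its values were seen. The share of all genes called rose in both of these fits as well. In PANC-1, TAp63 gave 0 calls, beside 0.00677% of all genes called, and deltaNp63 gave 0 calls, beside 0.0406%. At an unadjusted p under 0.05 there was 1 member with TAp63, beside 503 of all tested genes. With deltaNp63 there were 0 members, beside 345 of all tested genes. The nuclear medians in PANC-1 were 0.02 and 0.01. The direct comparisons of TAp63 with deltaNp63 gave 0 calls in AsPC-1, beside 0.0203% of all genes called, and 0 in PANC-1, beside 0.0271%. At an unadjusted p under 0.05 there were 7 members in AsPC-1, beside 1170 of all tested genes. In PANC-1 there were 0 members, beside 437 of all tested genes.

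The 1 member at an unadjusted p under 0.05 in PANC-1 with TAp63 was SDHA, named after its values were seen. It had 84.3 and 85.3 TPM in mock and 98.2 and 99.4 TPM with TAp63, and 89.2 and 90.0 TPM with deltaNp63. SDHA was higher with TAp63 than in mock without overlap, but so were many other members, and many were lower without overlap. The adjusted p of SDHA was 1 in limma. NDUFA6, a complex I accessory subunit at low level, had the largest log2 differences in PANC-1 (0.82 and 1.37), with a standard error of 0.63. It had 3.48 and 2.90 TPM in mock, 10.3 and 3.83 TPM with TAp63 and 12.6 and 7.55 TPM with deltaNp63, and in AsPC-1 the TAp63 replicates alone were at 9.20 and 1.82 TPM.

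In AsPC-1, deltaNp63 gave 3 calls of 97, beside 7.14% of all tested genes (0.637% higher and 6.51% lower), and the share of members called was lower than that background. With each library centred on its median, 3 members were called higher and 0 lower beside 2.84% of all genes (249 genes higher and 170 lower), so neither the lower share nor the direction of the background held under that scaling. NDUFB9, an accessory subunit of complex I, rose from 572 and 549 TPM in mock to 762 and 679 TPM (log2 0.36, SE 0.09, adjusted p = 0.0422 in limma). ATP5PB, the peripheral stalk subunit b of the ATP synthase, rose from 422 and 384 TPM to 504 and 487 TPM (0.30, SE 0.08, adjusted p = 0.0482). The readthrough ATP5MF-PTCD1 fell from 0.754 and 0.720 TPM to 0.308 and 0.148 TPM (-0.50, SE 0.12, adjusted p = 0.0432). All of these values lie under the 1 TPM of the filter. The gene was tested here only because libraries of other groups, such as PANC-1 mock, passed it. ATP5MF with the readthrough had 366 and 348 TPM in mock and 316 and 350 TPM with deltaNp63. The groups did not overlap for these 3 genes, but many other members were also higher or lower without overlap in this comparison. With TAp63, NDUFB9 had 639 and 593 TPM and ATP5PB 465 and 428 TPM, between the mock and the deltaNp63 levels.

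The number of calls changed when any 1 of the 12 libraries was left out. It was 0 without AsPC-1 deltaNp63 replicate 1, 19 (6 higher, 13 lower) without replicate 2 of that group, and 0 without either AsPC-1 mock library. It was 1 without either AsPC-1 TAp63 library and 0 without any 1 of the 6 PANC-1 libraries, which enter this comparison only through the shared spread and the filter. The number was also 0 under quantile normalization, without the filter and with only the 2 groups in the model. Among genes with a mean of at least 5 TPM it was 5 of 92 tested members, beside 15.3% of all genes called. That share of all genes was above the 7.14% of the fit on all 14767 genes. The share of members called at that mean was lower than this background. Without AsPC-1 deltaNp63 replicate 2 the share of all genes called rose as well, so the higher number there was not particular to the members. NDUFB10, an accessory subunit of complex I named after its values were seen, shows the spread: it had 172 and 137 TPM in mock, 113 and 129 TPM with TAp63, and 57.4 and 125 TPM with deltaNp63, so that replicate 1 lay far below every other AsPC-1 library (log2 -0.85, SE 0.28, adjusted p = 0.0796).

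The nuclear members had a median log2 difference of 0.04 with deltaNp63 in AsPC-1, where all tested genes had -0.12, and 64 of 84 lay above the median of all genes. Centring each library on its median moved these medians to 0.25 and 0.09. With TAp63 in AsPC-1 the same centring turned the nuclear median from -0.07 to 0.06. Cytosolic ribosomal protein genes had a median of 0.14 in the deltaNp63 comparison without that centring. Of 83 such genes 12 were called higher and 0 lower, beside 0.637% and 6.51% of all tested genes. Whether these calls hold with median centring was not tested.

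**Figure D4:**
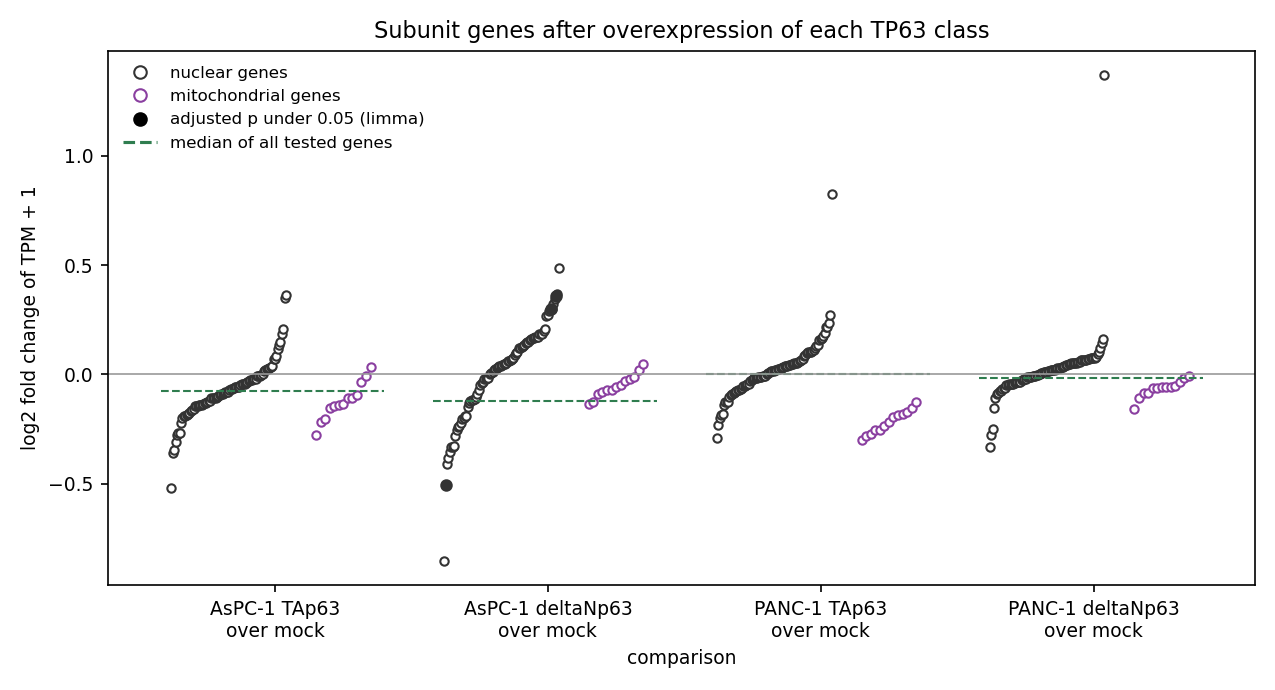
Log2 fold change of TPM + 1 (vertical axis) of each tested member in the 4 comparisons of a construct with mock, nuclear genes in black and mitochondrial genes in purple, filled where the adjusted p was under 0.05 in limma. Only AsPC-1 deltaNp63 has filled points, and the mitochondrial genes in PANC-1 TAp63 lie between -0.30 and -0.13, none of them past the threshold.

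Differences between replicates moved with the base composition of the transcripts. Over the 84 tested nuclear members, whose canonical transcripts have 34.6% to 69.5% GC, the Spearman correlation between GC content and the log2 difference of replicate 1 and replicate 2 was -0.39 in AsPC-1 mock, -0.63 in AsPC-1 TAp63, -0.67 in AsPC-1 deltaNp63, -0.41 in PANC-1 mock, -0.42 in PANC-1 TAp63 and -0.12 in PANC-1 deltaNp63. Over all 14767 tested genes it was -0.24, -0.45, -0.34, -0.18, -0.11 and 0.04 in the same order. These values were smaller in size and below 0 in all groups but PANC-1 deltaNp63. This is a description across genes that share libraries and are not independent. For AsPC-1 deltaNp63 replicate 1 against the mean of mock it was -0.64 over the members, and for replicate 2 it was -0.18. For AsPC-1 TAp63 the same values were -0.47 for replicate 1 and 0.22 for replicate 2. The difference of replicate 1 from replicate 2 thus tended to be lower in members with more GC than in members with less, in most groups. NDUFB10 has 59.0% GC. NDUFB9 has 53.0% and ATP5PB 39.4% GC. Whether GC content has a part in the calls was not tested.

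**Figure D5:**
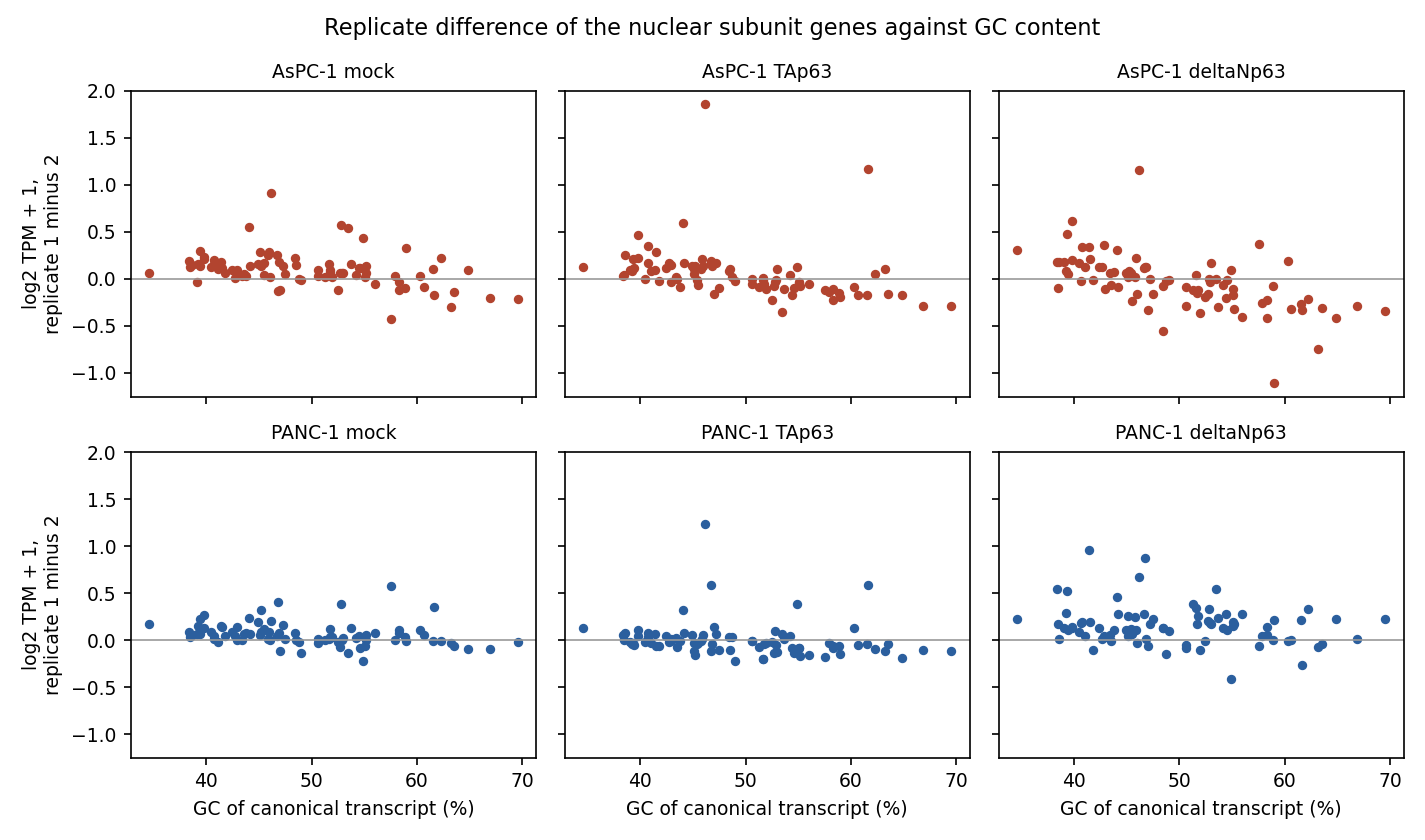
Log2 difference of TPM + 1 between replicate 1 and replicate 2 (vertical axis) against the GC content of the canonical transcript (horizontal axis, percent) for the 84 tested nuclear members, 1 panel per group. The Spearman correlation was below 0 in every panel, strongest in AsPC-1 TAp63 and AsPC-1 deltaNp63 (-0.63 and -0.67), and weakest in PANC-1 deltaNp63 (-0.12).

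The mitochondrial genes were not called in any construct comparison. In PANC-1 all 13 had lower means with TAp63 than in mock (median -0.22) and than with deltaNp63 (median -0.13), with 0 at an unadjusted p under 0.05 in both. The median against mock was -0.03 without PANC-1 mock replicate 1, with 3 of 13 above 0, and -0.41 without replicate 2. The median against deltaNp63 was -0.23 without PANC-1 TAp63 replicate 1 and -0.08 without replicate 2. In the comparison with deltaNp63, the TAp63 libraries were below both deltaNp63 libraries for 11 of the 13 genes, beside 13.8% of all genes lower without overlap. In AsPC-1 the medians were -0.13 with TAp63 and -0.06 with deltaNp63, and moved to -0.0016 and 0.15 with median centring. Without AsPC-1 mock replicate 1 both were above 0 (0.04 and 0.13), and without replicate 2 they were -0.29 and -0.23. Without AsPC-1 TAp63 replicate 1 the TAp63 median was -0.28, and without replicate 2 it was 0.02. In AsPC-1, MT-CO3 had 4924 and 4373 TPM with TAp63 and 4669 and 4978 TPM with deltaNp63, all between its 2 mock values. In PANC-1 it had 1359 and 1303 TPM with TAp63, at or below the lower mock value, and 1461 and 1457 TPM with deltaNp63, between the mock values.

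Whether a construct acted differently in the 2 lines was tested by the difference of its effects. For TAp63 0 members were called, beside 0.0745% of all genes, and for deltaNp63 0 were called, beside 0.582%. At an unadjusted p under 0.05 there were 6 members for TAp63, beside 1540 of all 14767 tested genes. For deltaNp63 there were 11 members, beside 2431 of all tested genes. Without AsPC-1 deltaNp63 replicate 2 the number of members called for deltaNp63 rose, and so did the share of all genes called.

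In the lists around the complexes, PNPT1 fell in AsPC-1 with TAp63 (log2 -0.77, adjusted p = 0.00271 in limma) and with deltaNp63 (-0.83, adjusted p = 0.000509), and had values of -0.04 and 0.01 in PANC-1. It was the 1 gene called among 23 for mitochondrial transcription, replication and RNA turnover in each of the 2 AsPC-1 comparisons. Of all tested genes, 0.637% were called with TAp63 and 7.14% with deltaNp63 in AsPC-1. Of the 54 assembly factors, NDUFAF3, which acts in early complex I assembly, fell by 0.44 and SCO2, which delivers copper to complex IV, fell by 0.69 on the log2 scale with deltaNp63 in AsPC-1. In that comparison 2 of the 54 were called, both lower, beside 6.51% of all genes called lower. No assembly factor, regulator or citric acid cycle gene was called with TAp63 in AsPC-1 or with either construct in PANC-1. All genes named in this paragraph were chosen after their values were seen.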

How the data were processed

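Per the labels' protocols, total RNA of 12 libraries was made into stranded mRNA libraries. The authors deposited TPM values for 153329 transcripts, each library summing to 1000000. The quantifier, annotation and genome build are not given in the sources used here, and read depth is unknown, so precision rests on the 2 replicates per group. Transcripts were paired with genes through GENCODE v44 (hg38), which covered 139819 rows (91.2%) and 89.6% to 90.5% of TPM. Gene sums were tested as log2(TPM + 1) for the 14767 genes that reached 1 TPM in 2 libraries or more. One model of 6 group means was fitted with limma 3.58.1 (eBayes with trend, 6 residual degrees of freedom) in R 4.3.3, and 9 contrasts were adjusted by Benjamini-Hochberg over all tested genes, 2-sided, at 0.05. A fold change on this scale understates low genes. The script was tested on simulated data. Alternatives changed the trend, scaling, filter, pseudocount, samples in the model and replicate block, left out each replicate, or summed only protein-coding transcripts. Members named were the 13 mitochondrial genes, all called members or the 4 largest each way per construct comparison, the 8 largest each way between mock cells, the extremes of each complex, isoform pairs, ATP5IF1 and SDH genes. The members and lists were chosen with earlier results of these data known. Nothing in the labels says what the biological replicates were, so p-values measure the spread between these libraries. Figures were drawn with matplotlib, and promoters came from RefSeq (GRCh38.p14).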

Additional observations from a re-analysis of the deposited data

How the results depend on the processing

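The comparison of mock cells gave 58 to 67 called members when 1 of the 12 libraries was left out. For deltaNp63 in AsPC-1, the 3 calls became 1 in limma without trend, 0 under quantile normalization, 0 without the filter, 5 with a mean of at least 5 TPM, 0 with only the groups compared and 10 with the replicate block, and ranged from 0 to 19 over the fits without 1 library. The share of all genes called moved as well. It was 15.3% with a mean of at least 5 TPM and 11.1% with the replicate block. Both lay above the 7.14% of the fit on all 14767 genes. In both fits it was also above the share of members called. It also rose without AsPC-1 deltaNp63 replicate 2. It was lower in limma without trend, under quantile normalization, without the filter and with only the groups compared. The cause of these changes was not tested. The fit with only the groups compared had both fewer samples and fewer tested genes. Leaving out 1 library gave 0 to 1 calls for TAp63 in AsPC-1, 0 to 5 for TAp63 against deltaNp63 in AsPC-1 and 0 to 11 for the cell-line difference in the deltaNp63 effect, the higher number without AsPC-1 deltaNp63 replicate 2 for the last 2. The other 4 comparisons had 0 calls in every setting run. MT-ND4L changed sign under quantile normalization (0.0085), as did MT-CO2 (0.19), and MT-CO2 also without AsPC-1 mock replicate 1 (0.08) and without PANC-1 mock replicate 2 (0.11), within a range of -0.25 to 0.11 over the fits without 1 library. SDHD changed sign with median centring (-0.012). Summing only protein-coding transcripts lowered the nuclear sums. Replicate numbers were used as a block only here: the deviations of same-numbered libraries correlated between -0.09 and 0.11 in 5 pairs of groups and by 0.29 between AsPC-1 TAp63 and deltaNp63, so the numbers are not a shown pairing, and the block gave 70 calls between the mock cells. Depth is unknown, and low genes such as ATP5MF-PTCD1 and COX6B2 rest on few reads of unknown number.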
